A study of Mus musculus with 7 samples.

Results

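CD200 and the CD200 receptors were examined in RNA sequencing libraries of sorted alveolar macrophages, the phagocytes that live in the airspaces of the lung. The 5 genes, Cd200, Cd200r1, Cd200r2, Cd200r3 and Cd200r4, were found by symbol among 26143 rows with a symbol, and all 5 were present. They were chosen from results of the same Cish KO against WT contrast, in which Cd200r2 stood out, so their genotype differences are given as a description and without a test. The groups were 3 libraries of Cish KO mice and 4 libraries of WT mice, all from C57BL/6 animals 4 months old. Cish encodes an inhibitor of cytokine receptor signalling that is induced through STAT5, and the series asks what its loss does to macrophages of the lung. The construct of the KO allele, the sex of the mice, the gates of the sort and whether each library came from its own mouse are not stated in the labels. P-values therefore measure the spread between these libraries only, which may be technical.

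CD200 is a cell surface glycoprotein that acts as the ligand of CD200R1, a receptor found mostly on myeloid cells. The cytoplasmic tail of CD200R1 recruits the adaptor Dok2 and, with it, RasGAP (Rasa1), which dampens Ras and MAP kinase signalling; alveolar macrophages are known for abundant CD200R1, and airway epithelium for carrying its ligand. The other mouse receptors have short tails, and those encoded by Cd200r3 and Cd200r4 (also called CD200RLb and CD200RLa) are known to signal through DAP12 (Tyrobp), an adaptor with an activating motif. Cd200r2 is placed with them by sequence, and Cd200r3 is best known from basophils and mast cells.

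The whole family lies on mouse chromosome 16 (RefSeq, GRCm38.p6). The receptors stand in a row on the plus strand, with Cd200r1 at 44765736 to 44794977, Cd200r4 at 44811650 to 44839150, Cd200r2 at 44867097 to 44915840 and Cd200r3 at 44943596 to 45058365. Cd200 lies beyond them on the minus strand, at 45382111 to 45409060. No exon of the 5 genes overlapped an exon of another gene on either strand in GENCODE M21, which bears on these counts because the library kit does not mark the strand. The receptors are paralogs, and reads could be shared. Of the words of 50 bases in the Cd200r2 transcript, 3.59% also occur in Cd200r4 transcripts and 0% in those of the other 3 genes. In the other direction 2.99% of Cd200r4 words occur in Cd200r2, and 1.96% in Cd200r1.

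Promoter sequence is shown for Cd200r2 and Cd200, the genes with higher counts in KO, and for Cd200r3, a receptor whose libraries overlapped between the genotypes. Each is the 250 bases before a RefSeq transcript start, read 5′ to 3′ on the strand of the gene. Of the 5 genes 4 were matched in the RefSeq promoter table. The window listed for Cd200r4 lies before a start at 44820728, wholly inside the span of that gene, and is not shown, nor is Cd200r1. The window of Cd200r3 lies before a start at 44943678, and its last part is inside the gene span, which begins at 44943596. The last few bases of the Cd200 window also lie inside the span of that gene. Capitals mark GAGGAA, the core bound by ETS factors such as PU.1, a factor that macrophages depend on.
Cd200r2, chr16:44866847-44867096, plus strand: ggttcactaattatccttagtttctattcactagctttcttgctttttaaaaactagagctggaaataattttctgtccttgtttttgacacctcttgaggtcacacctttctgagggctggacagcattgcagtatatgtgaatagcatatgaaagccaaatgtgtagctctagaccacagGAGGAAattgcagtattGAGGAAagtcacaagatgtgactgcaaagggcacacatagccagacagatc
Cd200r3, chr16:44943428-44943677, plus strand: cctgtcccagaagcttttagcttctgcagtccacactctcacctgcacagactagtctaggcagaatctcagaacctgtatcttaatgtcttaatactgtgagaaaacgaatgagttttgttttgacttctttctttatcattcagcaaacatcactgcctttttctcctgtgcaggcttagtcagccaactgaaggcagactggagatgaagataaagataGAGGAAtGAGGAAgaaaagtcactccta
Cd200, chr16:45409054-45409303, minus strand: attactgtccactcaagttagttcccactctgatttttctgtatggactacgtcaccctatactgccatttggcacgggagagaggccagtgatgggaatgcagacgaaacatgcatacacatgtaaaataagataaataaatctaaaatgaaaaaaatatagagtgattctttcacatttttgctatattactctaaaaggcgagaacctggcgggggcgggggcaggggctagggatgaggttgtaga
GAGGAA or its reverse complement was found at 2 places in the Cd200r2 window, at 2 places in that of Cd200r3 and at 0 places in that of Cd200. The Cd200r3 places, at -28 to -23 and -21 to -16 from the start, lie in the part inside that gene's span. A match was present in 23.3% of 32851 RefSeq promoters over the same window. The STAT motif TTCNNNGAA, present in 7.02% of these promoters, and the AP-1 motif TGANTCA, present in 6.75%, were found at 0 places in all 3 windows on either strand. The motifs do not overlap one another here, and no match says only that these letters are not in this window.

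Total counts lay between 26780291 and 30989230 in KO and between 30637634 and 34483612 in WT. Values are CPM (counts scaled to library size with TMM factors), and log2 fold changes are KO over WT from edgeR. The targeted gene checked the labels: Cish had 12.9, 14.3 and 10.9 CPM in KO 1 to KO 3, against 46.3, 29.6, 38.1 and 67.9 CPM in WT 1 to WT 4. Its log2 fold change was -1.84 (SE 0.26), with an edgeR adjusted p of 0.0519, between 2.81e-11 and 0.225 over 15 alternatives, 10 of which passed. WT 4 and KO 3 stood apart from their groups. On the second principal component of log2 CPM they had the lowest scores, -24.5 for KO 3 and -26.4 for WT 4, against 11.7 and 27.7 for the other KO libraries and -14.3 to 13.0 for the other WT libraries. On the first principal component (42.6% of the variance) WT 4 lay at -7.27, between KO (-43.9 to -18.3) and the other WT libraries (24.1 to 39.4). Both also stand after the other 5 libraries in the count table, and the labels give no batch. All 10 markers of alveolar macrophages were abundant in every library, the lowest value being 152 CPM for Marco in a WT library. Ly6g, Prss34, Ms4a2 and Tpsb2, markers of neutrophils, basophils and mast cells, were at 0 in all 7. Some other markers of these cells had reads in every library. S100a8 stood at 8.86 to 30.7 CPM in KO and 4.80 to 14.3 CPM in WT. Cpa3 stood at 0.233 to 0.561 CPM in KO and 0.196 to 0.445 CPM in WT.

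Cd200r2 had the widest difference in the family. It had 35.5, 15.4 and 6.69 CPM in KO 1 to KO 3 (1076, 397 and 182 reads), against 1.51, 1.84, 1.91 and 3.04 CPM in WT 1 to WT 4 (54, 59, 60 and 97 reads). The groups did not overlap: the lowest KO library, KO 3, stood 2.20-fold above the highest WT library, WT 4. KO libraries were unlike one another, with the highest 5.31-fold above the lowest, while WT libraries spanned 2.01-fold. The mean was 19.2 ± 14.8 CPM in KO (SD, n = 3) and 2.07 ± 0.664 CPM in WT (SD, n = 4), or 9.26-fold, and the log2 fold change was 3.21 (SE 0.50). It was 2.42 (SE 0.37) without KO 1 and 3.86 (SE 0.35) without WT 4 and KO 3.

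Cd200, the ligand, was also higher in the KO libraries, at a much larger count. It had 167, 102 and 104 CPM in KO 1 to KO 3 (5057, 2630 and 2821 reads), against 44.6, 51.9, 45.7 and 84.5 CPM in WT 1 to WT 4 (1596, 1661, 1436 and 2699 reads). KO 1 was the highest of all libraries and WT 4 the highest of its group, and the groups did not overlap, with KO 2 only 1.21-fold above WT 4. The mean was 124 ± 37.0 CPM in KO (SD, n = 3) and 56.7 ± 18.8 CPM in WT (SD, n = 4), or 2.19-fold, and the log2 fold change was 1.13 (SE 0.25). It was 0.86 (SE 0.24) without KO 1, 1.39 (SE 0.19) without WT 4 and 1.51 (SE 0.19) without WT 4 and KO 3.

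Cd200r1, the inhibitory receptor, was close to level between the genotypes. It had 114, 150 and 146 CPM in KO 1 to KO 3 (3438, 3867 and 3964 reads), against 127, 144, 142 and 154 CPM in WT 1 to WT 4 (4533, 4612, 4453 and 4912 reads). KO 1 was the lowest library and the others of KO lay inside the WT range, so the groups overlapped. The mean was 137 ± 20.0 CPM in KO (SD, n = 3) and 142 ± 11.1 CPM in WT (SD, n = 4), with a log2 fold change of -0.053 (SE 0.11) that was 0.064 (SE 0.10) without KO 1.

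Cd200r4, the most abundant of the family, was near its WT level. It had 214, 255 and 234 CPM in KO 1 to KO 3 (6484, 6574 and 6368 reads), against 249, 263, 271 and 253 CPM in WT 1 to WT 4 (8898, 8410, 8515 and 8094 reads). KO 1 and KO 3 lay below every WT library and KO 2 inside the WT range. The mean was 235 ± 20.7 CPM in KO (SD, n = 3) and 259 ± 9.85 CPM in WT (SD, n = 4), with a log2 fold change of -0.14 (SE 0.085) and a range of -0.21 to -0.081 when each library was left out in turn. Cd200r2, which lies next to it and shares more 50-base words with it than with the other members, thus had a different pattern over the libraries. The part of reads shared with Cd200r4 in the low WT counts of Cd200r2 was not tested.

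Cd200r3 was at the edge of detection, with 13, 17 and 8 reads in KO 1 to KO 3, against 5, 4, 6 and 20 reads in WT 1 to WT 4. These are 0.429, 0.660 and 0.294 CPM in KO and 0.140, 0.125, 0.191 and 0.626 CPM in WT. WT 4 stood among the KO libraries and the groups overlapped. The log2 fold change was 0.76 (SE 0.63), and 1.81 (SE 0.54) without WT 4 and KO 3. Without WT 4 alone it fell below the filter on low counts and has no value. Without Cd200r3 itself, the markers of basophils and mast cells summed to 1.10 to 2.05 CPM in KO and 0.448 to 0.969 CPM in WT. The sums did not overlap between the genotypes. Gata2 had the highest mean of the list, at 0.772 to 1.29 CPM in KO and 0.223 to 0.563 CPM in WT, without overlap. The other markers of the list overlapped or were at 0 in every library. Among them Cpa3 stood at 0.233 to 0.561 CPM in KO and 0.196 to 0.445 CPM in WT (log2 fold change 0.16). Of the list edgeR called 0 genes and DESeq2 called 1, higher in KO (2.68% of all genes). The part of such cells in the Cd200r3 reads was not tested. In bulk libraries more cells of a type and more RNA per cell cannot be told apart.

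**Figure D1:**
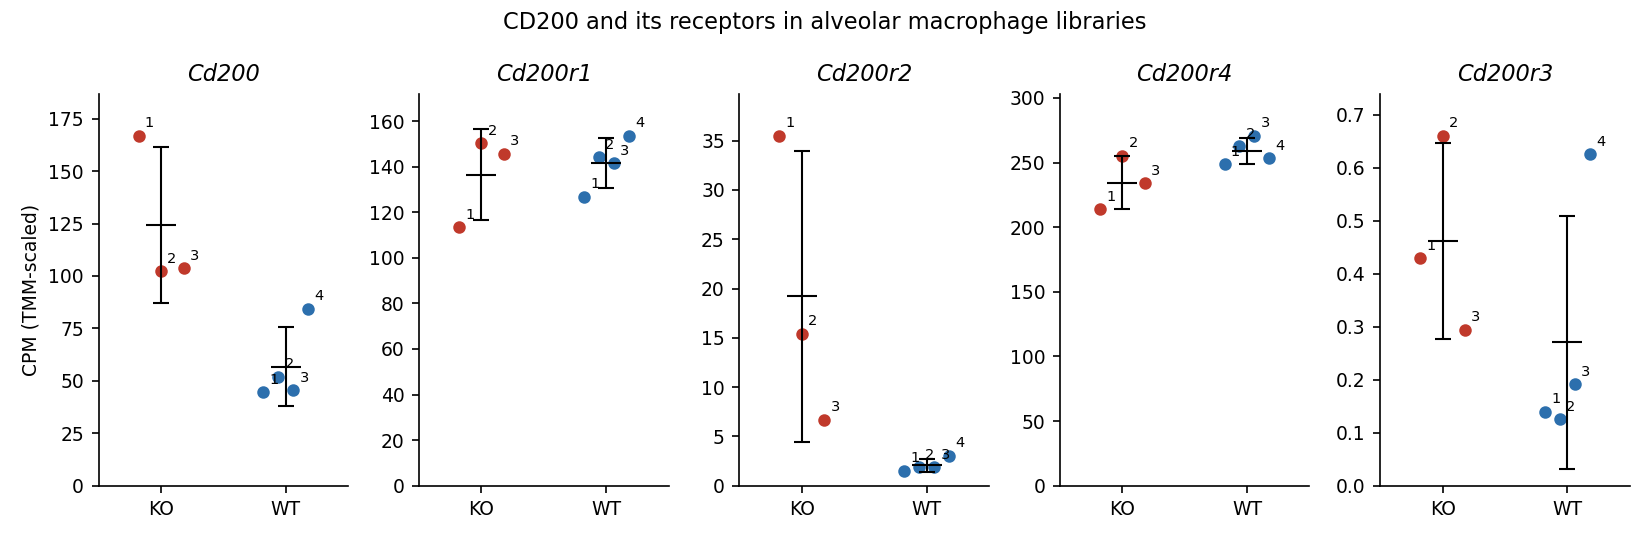
CPM (vertical axes, each starting at 0) of the 5 genes in 3 KO and 4 WT libraries; points are libraries with their replicate number, the horizontal mark is the group mean and the bar 1 SD. The KO points of Cd200r2 (6.69 to 35.5 CPM) and Cd200 (102 to 167 CPM) lie above all WT points, and those of Cd200r1, Cd200r4 and Cd200r3 overlap WT.

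All 5 genes passed the filter on low counts; Cd200r3 passed on few reads. CPM did not overlap between the genotypes for 2 of the 5, both higher in KO. Among all 12759 genes tested, 7.23% were without overlap and higher in KO and 8.72% without overlap and lower in KO. Because the genes were chosen from this contrast, nothing is read from that count. edgeR called 11 of the 12759 genes at an adjusted p below 0.05 (0.0862%), and DESeq2 called 2.68% of 13198 genes as higher and 3.02% as lower.

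Levels of different genes were compared as CPM per kilobase of exon (union of GENCODE M21 exons), which can differ from the exons the authors counted. In KO the order was Cd200r4 (115 ± 10.1), Cd200r1 (40.8 ± 5.99), Cd200 (37.4 ± 11.1), Cd200r2 (10.98 ± 8.45) and Cd200r3 (0.0771 ± 0.0310), each as mean CPM per kilobase ± SD (n = 3). The order was the same in WT, with Cd200r4 at 127 ± 4.82, Cd200r1 at 42.3 ± 3.33, Cd200 at 17.1 ± 5.66, Cd200r2 at 1.19 ± 0.379 and Cd200r3 at 0.0452 ± 0.0399 (n = 4). Cd200r1 and Cd200 did not differ beyond their spread in KO, while in WT the levels of these neighbours in the order were apart. The ratio of the ligand to its receptor, Cd200 over Cd200r1 per kilobase, was 1.48, 0.686 and 0.717 in KO 1 to KO 3 and 0.355, 0.363, 0.325 and 0.554 in WT 1 to WT 4. Cd200 thus exceeded Cd200r1 per kilobase in KO 1 alone among the 7 libraries.

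Within the receptors, Cd200r2 took 12.8%, 4.93% and 2.36% of the summed CPM per kilobase in KO 1 to KO 3, against 0.538%, 0.610%, 0.620% and 1.01% in WT 1 to WT 4. The sum itself was alike, at 167 ± 10.6 CPM per kilobase in KO (SD, n = 3) and 170 ± 6.71 in WT (SD, n = 4). Cd200r4 held 68.8% ± 2.60 of it in KO and 74.4% ± 1.62 in WT, and Cd200r1 held 24.4% ± 2.84 in KO and 24.8% ± 1.39 in WT. The receptors with short tails together exceeded Cd200r1 per kilobase in every library, 3.13 ± 0.501-fold in KO and 3.04 ± 0.220-fold in WT. Cd200r4 was the most abundant receptor in each library, 5.16-fold, 14.2-fold and 29.9-fold above Cd200r2 in KO 1 to KO 3 and between 71.4-fold and 141-fold above it in WT.

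**Figure D2:**
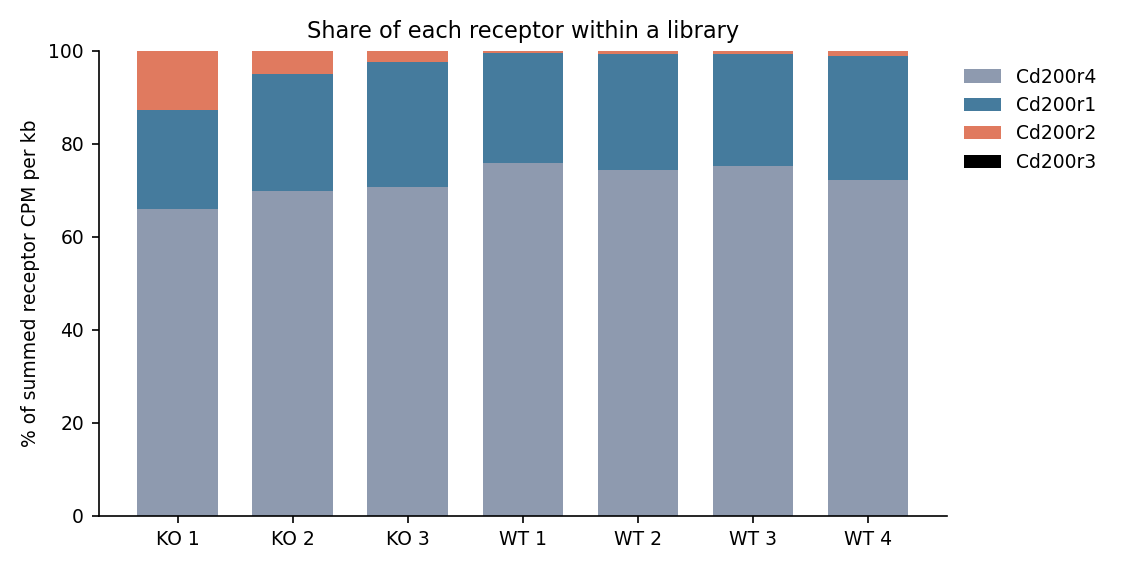
Share of each receptor in the summed receptor CPM per kilobase of exon (vertical axis, percent) in the 3 KO and 4 WT libraries; each bar is a library. Cd200r2 takes 2.36% to 12.8% in KO and 0.538% to 1.01% in WT, and Cd200r3 is too low to be seen.

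Cd200 is also made by cells other than macrophages, among them endothelial cells and lymphocytes. The 7 markers of endothelial and stromal cells summed to 11.1, 11.1 and 4.27 CPM in KO 1 to KO 3 and to 2.71, 3.94, 1.30 and 4.26 CPM in WT 1 to WT 4. Of these markers edgeR called 0 and DESeq2 called 3, all higher in KO (2.68% of all genes). Pecam1, the most abundant of them, was at 1.62 to 4.29 CPM in KO and 0.445 to 1.47 CPM in WT. Markers of T and NK cells summed to 6.29 to 14.5 CPM in KO and 2.67 to 6.04 CPM in WT, led by Il7r, which DESeq2 called higher. Neither of these sums overlapped between the genotypes. In the endothelial and stromal list KO 3 (4.27 CPM) stood next to WT 4 (4.26 CPM). Each marker of T and NK cells overlapped when taken alone. Il7r stood at 0.932 to 6.73 CPM in KO and 0.636 to 1.81 CPM in WT. Trac, a T cell receptor gene, stood at 0.588 to 1.62 CPM in KO and 0.573 to 1.28 CPM in WT (log2 fold change 0.072). B cell markers, led by Ighm, summed to 4.38 to 20.2 CPM in KO and 4.32 to 9.50 CPM in WT. Epithelial markers summed to 111 to 147 CPM in KO and 160 to 344 CPM in WT, most of it Epcam in WT (9.24 to 92.6 CPM in KO and 135 to 302 CPM in WT), while the median log2 fold change of the list was above 0. The part of these cells in the Cd200 counts was not tested.

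The remaining marker lists overlapped between the genotypes. Neutrophil markers, led by S100a8, summed to 10.04 to 32.6 CPM in KO and 5.12 to 16.6 CPM in WT. Markers of monocytes and interstitial macrophages, nearly all of it Cd14, summed to 592 to 1112 CPM in KO and 511 to 856 CPM in WT. Dendritic cell markers, led by Clec9a, summed to 4.00 to 8.42 CPM in KO and 4.72 to 6.51 CPM in WT. The 10 markers of alveolar macrophages summed to 47322 to 80908 CPM in KO and 22331 to 58195 CPM in WT, most of it Chil3. Of these DESeq2 called Mrc1 higher and Siglecf lower (2.68% and 3.02% of all genes).

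The next question was whether the genes that carry the signal of CD200R1 differed. Of 15 genes of this inhibitory pathway, all tested, edgeR called 0, with 0 higher and 3 lower at an unadjusted p below 0.05 (9.15% and 8.85% of all genes), and DESeq2 called 0. The median log2 fold change was 0.001, against 0.003 over all genes tested. Dok2, the adaptor that CD200R1 recruits, had 37.5, 55.5 and 81.2 CPM in KO 1 to KO 3, against 60.2, 95.7, 116 and 84.9 CPM in WT 1 to WT 4. The groups overlapped, with KO 3 above WT 1. Its log2 fold change was -0.62 (SE 0.27, edgeR adjusted p 0.275, from 0.0208 to 0.677 over 15 alternatives). Dok1, a related adaptor, averaged 17.8 ± 3.98 CPM in KO (SD, n = 3) and 20.8 ± 2.19 CPM in WT (SD, n = 4), with overlap and an edgeR adjusted p of 0.494. The kinases Map2k1 (MEK1) and Mapk3 (ERK1), lower in every KO library than in any WT library, had log2 fold changes of -0.25 and -0.16 and edgeR adjusted p values of 0.198 and 0.277.

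Genes below DAP12, the activating adaptor, were tested in the same fit. Tyrobp itself had 1596, 1473 and 1404 CPM in KO 1 to KO 3, against 1516, 1410, 1396 and 1728 CPM in WT 1 to WT 4, and its log2 fold change of -0.020 (SE 0.10) missed the threshold of edgeR (adjusted p 0.939). The groups overlapped, and the sign changed between alternatives (-0.071 to 0.092). Of 14 genes of the pathway edgeR called 0, with 0 higher and 5 lower at an unadjusted p below 0.05 (9.15% and 8.85% of all genes). DESeq2 called 2, both lower, beside 2.68% of all genes called higher and 3.02% called lower. The median log2 fold change was -0.048, against 0.003 over all genes tested. Lat2, a membrane adaptor named here after its values were seen, had 1.65, 1.52 and 1.95 CPM in KO 1 to KO 3 and 0.392, 0.563, 0.445 and 1.97 CPM in WT 1 to WT 4. WT 4 stood above every KO library, so the groups overlapped, and Lat2 was not called (adjusted p 0.366 by edgeR) but was called higher without WT 4 and without WT 4 and KO 3 (range 0.0371 to 0.660, log2 fold change 0.78 to 1.87).

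Fgr and Lyn are kinases of the Src family, which phosphorylates the activating motif. Fgr had 173, 255 and 248 CPM in KO 1 to KO 3 and 361, 344, 342 and 293 CPM in WT 1 to WT 4, a log2 fold change of -0.57 (SE 0.14), with every KO library below every WT library. It missed the edgeR threshold (adjusted p 0.109) and passed DESeq2 (0.00565), with a range of 0.00565 to 0.396. Lyn averaged 344 ± 16.3 CPM in KO (SD, n = 3) and 401 ± 27.2 CPM in WT (SD, n = 4), also without overlap and not called by edgeR (adjusted p 0.215).

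Other myeloid receptors that use DAP12 were tested next. Of 9 such genes 8 were tested, edgeR called 0, and 1 was higher and 4 lower at an unadjusted p below 0.05 (9.15% and 8.85% of all genes). DESeq2 called 1 higher and 2 lower (2.68% and 3.02% of all genes). The median log2 fold change was -0.33, against 0.003 over all genes tested, and it was -0.36 to -0.22 when each library was left out in turn. By sign alone 1 was above 0 and 7 below, and without KO 3 these were 3 and 5. Pilrb2, an activating receptor of the paired PILR family, had 29.2, 32.1 and 34.8 CPM in KO 1 to KO 3, against 41.8, 41.4, 43.4 and 49.6 CPM in WT 1 to WT 4, without overlap (log2 fold change -0.46, SE 0.10, edgeR adjusted p 0.0950, DESeq2 adjusted p 0.00450, range 0.00450 to 0.400).

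Pilrb1, its close paralog, had 14.5 to 17.3 CPM in KO and 19.3 to 25.8 CPM in WT and an adjusted p of 0.141 by edgeR, and the authors' counting may have split reads between these paralogs. Sirpb1a, an activating member of the SIRP family, averaged 83.8 ± 5.25 CPM in KO (SD, n = 3) and 101 ± 2.81 CPM in WT (SD, n = 4). It was not called by edgeR (adjusted p 0.133) and was called by DESeq2 alone among the alternatives (adjusted p 0.0407, range 0.0407 to 0.491). The gene higher by DESeq2 was the lipid receptor Trem2, with 104, 74.4 and 45.7 CPM in KO 1 to KO 3 and 43.9, 31.1, 35.0 and 56.1 CPM in WT 1 to WT 4 (log2 fold change 0.85, edgeR adjusted p 0.165, DESeq2 adjusted p 0.0249, range 0.0161 to 0.569), named here after its values were seen.

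**Figure D3:**
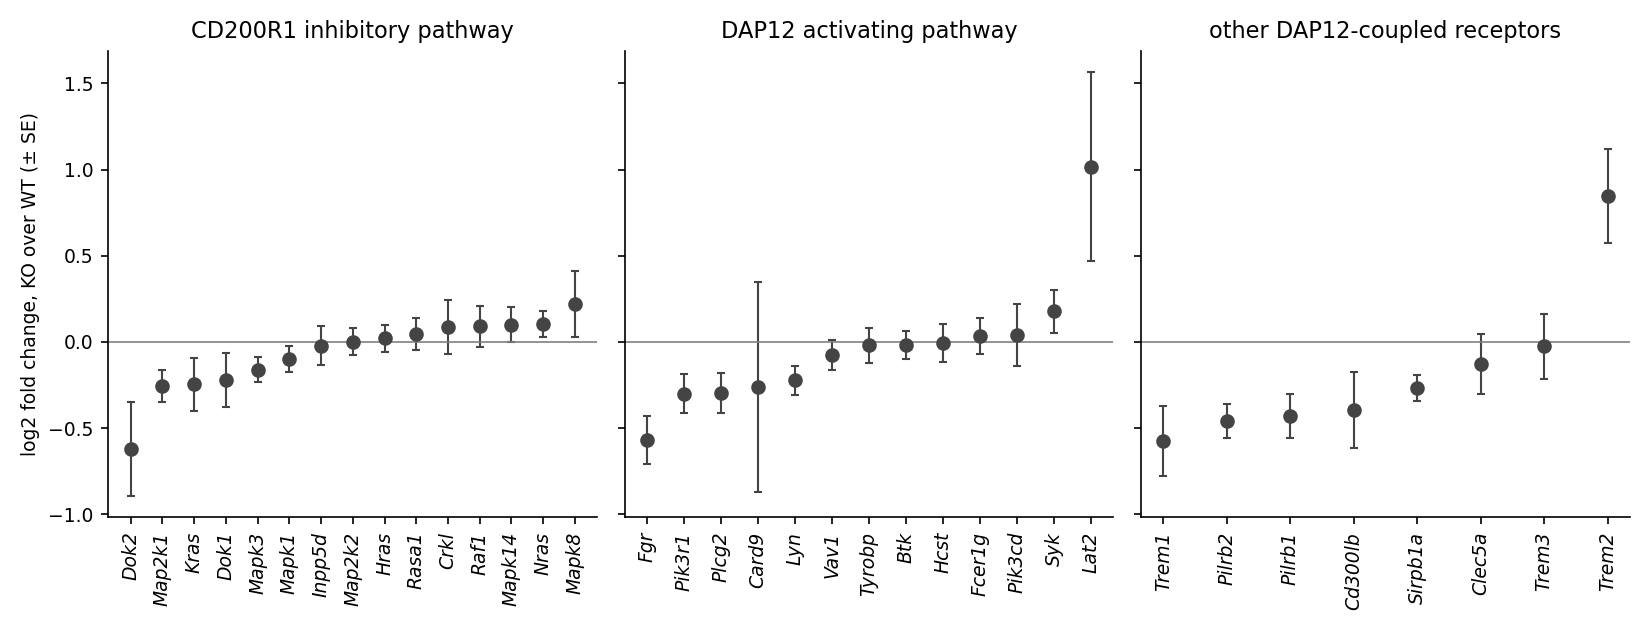
Log2 fold change, KO over WT (vertical axis; bars are 1 SE), of the tested genes of the CD200R1 inhibitory pathway, the DAP12 activating pathway and other DAP12-coupled receptors, ordered within each list by that value; 1 gene of the second list is not drawn. Dok2 is the lowest point of the first list (-0.62) and Fgr the lowest drawn of the second (-0.57), and Tyrobp lies at -0.020.

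The surroundings of the family on chromosome 16 were then compared. Of 33 other genes within 1 Mb of the stretch from Cd200r1 to Cd200, 19 were tested. edgeR called 0 of them, with 5 higher and 2 lower at an unadjusted p below 0.05 (9.15% and 8.85% of all genes). DESeq2 tested 20 and called 1 higher and 2 lower (2.68% and 3.02% of all genes). The median log2 fold change was -0.14 over the 19 and 0.003 over all genes tested. With no filter on low counts its sign turned, to 0.42 over 32 neighbours (19 above 0 and 13 below), against 0.042 over all genes. Plcxd2, a phospholipase C-like gene, had 2.15, 1.98 and 1.95 CPM in KO 1 to KO 3 and 0.839, 0.782, 1.02 and 0.782 CPM in WT 1 to WT 4, without overlap (log2 fold change 1.24, SE 0.25, edgeR adjusted p 0.0921, DESeq2 adjusted p 0.00404, range 0.00404 to 0.370).

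BC016579 had 1.39, 2.29 and 2.39 CPM in KO 1 to KO 3 and 4.59, 4.94, 5.12 and 3.38 CPM in WT 1 to WT 4, also without overlap. Its log2 fold change was -1.16 (SE 0.26, edgeR adjusted p 0.0950, DESeq2 adjusted p 0.00152, range 0.00152 to 0.396), and edgeR called it without WT 4 (adjusted p 0.0474). Atg3, an enzyme of autophagy, had 178 to 188 CPM in KO and 207 to 234 CPM in WT (log2 fold change -0.28, SE 0.078, edgeR adjusted p 0.130, DESeq2 adjusted p 0.0239, range 0.0239 to 0.470). The difference of Cd200r2 was not shared by Cd200r1 and Cd200r4 on one side of it, as their values above show. On the other side Cd200r3 (0.76, SE 0.63, few reads and overlap) and Cd200 (1.13, SE 0.25) had positive log2 fold changes. Of the tested genes between Cd200r3 and Cd200, Ccdc80 (-0.14), Slc35a5 (-0.18) and Atg3 had negative ones. Btla, with few reads, had a positive one (0.47, SE 0.97).

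**Figure D4:**
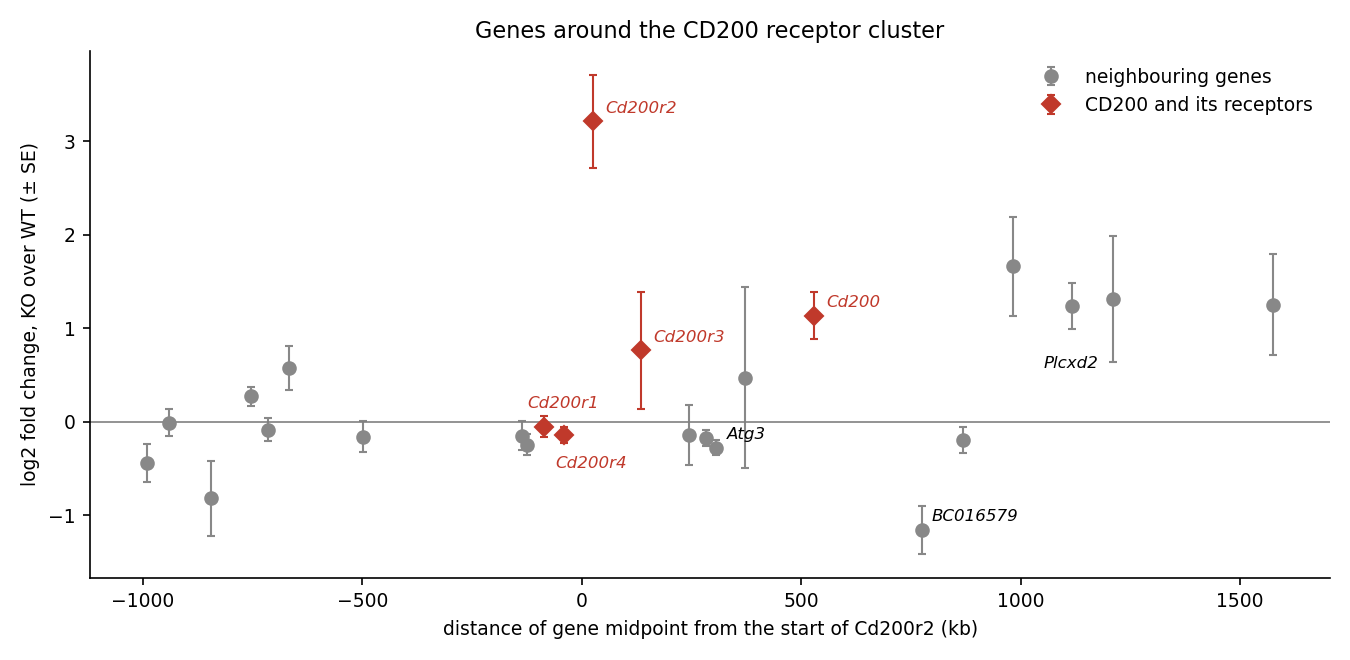
Log2 fold change, KO over WT (vertical axis; bars are 1 SE), of the tested genes within 1 Mb of the family against the distance of the gene's midpoint from the start of Cd200r2 in kilobases. Cd200r2 stands at 3.21, Cd200 at 1.13 and Cd200r3 at 0.76, and Cd200r1 (-0.053) and Cd200r4 (-0.14) lie on the other side of Cd200r2 near 0.

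Finally, genes with a pattern over the 7 libraries most like that of each member were listed by the correlation of log2 CPM among 7857 genes of at least 10 mean CPM. With so many genes and 7 points that share their libraries and their genotype split, high values are common, and they are a description only. For Cd200r2 the nearest were C77080, Prickle2 (a planar polarity protein), Col4a3bp (a ceramide carrier), Mrpl41 (a protein of the mitochondrial ribosome) and Slc31a2 (a copper transporter), with correlations of 0.978 to 0.997. Prickle2 had 24.0, 15.5 and 10.5 CPM in KO 1 to KO 3 and 4.22, 4.31, 5.06 and 7.23 CPM in WT 1 to WT 4. Like Cd200r2 it was highest in KO 1, and WT 4 was the highest WT library. C77080 was the nearest also after the genotype means were subtracted.

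For Cd200 the nearest were Fdx2, Aff1, Arglu1, Sec14l1 and Plcb2 (0.985 to 0.993), all with KO 1 and WT 4 as the highest of their groups. For Cd200r1 they were Nkap, Amz1, Fabp1, Fbxo31 and Zc3h15 (0.928 to 0.941). Fabp1, a fatty acid binding protein typical of alveolar macrophages, had 635, 857 and 791 CPM in KO 1 to KO 3 and 747, 760, 819 and 838 CPM in WT 1 to WT 4, lowest in KO 1 as Cd200r1 was. For Cd200r4 they were Klhl17, Grap2, Cct8, Anxa2 and Def6 (0.972 to 0.981).

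**Figure D5:**
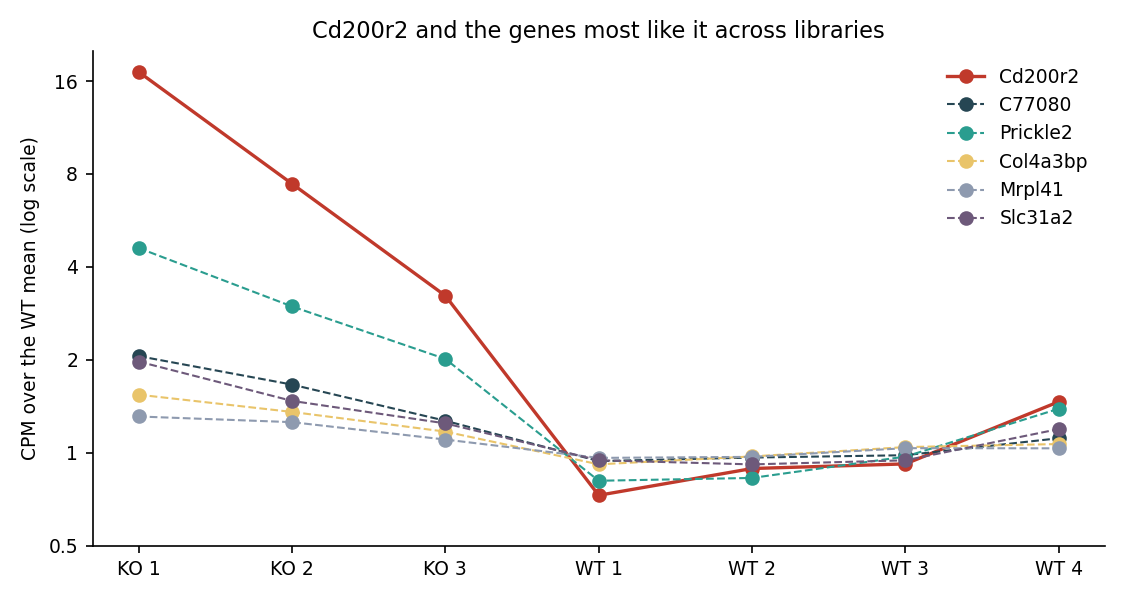
CPM of Cd200r2 and of the 5 genes most like it in each library, divided by the gene's WT mean (vertical axis, log scale), in 3 KO and 4 WT libraries; lines join the points of a gene to guide the eye. All of these genes are highest in KO 1 and higher in each KO library than in any WT library, with the widest range for Cd200r2.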

How the data were processed

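Gene counts, raw and unnormalized, were deposited by the authors as a single table headed by symbols and named for rsubread. The submitters' processing notes name mm10 and DESeq2, and how multi-mapping reads were handled is not given in the sources used here. Per the labels' protocols, libraries were made with Nextera XT. Of 27179 rows 1036 carried no symbol (0.376% to 0.424% of counts) and were left out. Counts were fitted across all genes in R 4.3.3 with edgeR 4.0.16 (filterByExpr, TMM, quasi-likelihood F test on genotype, Benjamini-Hochberg), with 5 residual degrees of freedom, and log2 CPM used a prior count of 2. DESeq2 1.42.0 and limma 3.58.1 served alternatives. The edgeR step was tested on simulated data. Members and lists were chosen with earlier results of these data known. Named were the 5 members, Cish, called genes of each list or its 3 smallest p, Tyrobp, Dok1, Dok2, 5 nearest genes per member and the most abundant marker of each cell type. Reads carry no molecular identifiers. The values of 1 gene of the DAP12 list that the naming rule picks are not reported here, although it stays in the counts and the median of that list.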

Additional observations from a re-analysis of the deposited data

Results flagged for a closer look

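Cd200r3 in WT 4 stood far from the other WT libraries, at 0.626 CPM (20 reads) against 0.125 to 0.191 CPM (4 to 6 reads) in the rest. The gap to the nearest library was 0.869 of the whole WT range. WT libraries were looked at in this way for 20 genes, and chance flags about 1 group in 20.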

How the results depend on the processing

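The log2 fold changes of the members moved by less than the SD between libraries under every alternative, except that of Cd200r3, which was 1.53 with the replicate block and 1.81 without WT 4 and KO 3. Cd200r2 ranged from 2.42 to 3.86, Cd200 from 0.86 to 1.51, Cd200r4 from -0.21 to -0.081 and Cd200r1 from -0.13 to 0.064. Counts of called genes depended on the processing, and the cause was not tested. Over all genes they were 753 by DESeq2, 397 with no filter, 21 with a stricter filter (5 CPM in 3 libraries), 46 by limma voom and 590 without WT 4 and KO 3, against 11; with 1 library left out they lay between 7 (without WT 1) and 284 (without WT 4), and were 217 without KO 3. In the DAP12 pathway 2 were called by DESeq2 and with no filter, all lower, 2 without WT 4 and KO 3 (Lat2 higher and 1 lower), 1 by voom (lower) and 0 to 2 with 1 library left out (1 lower without KO 3; Lat2 higher and 1 lower without WT 4). Among other DAP12-coupled receptors 3 were called by DESeq2, 1 with no filter and 3 without WT 4 and KO 3. Among the neighbours 3 were called by DESeq2, 1 with no filter, 1 without WT 4 and KO 3 and 0 to 1 with 1 library left out (BC016579 without WT 4). The log2 fold change of Tyrobp turned to 0.019 by voom and 0.092 without WT 4 and KO 3, and lay between -0.071 and 0.052 with 1 library left out (0.021 without KO 3, 0.052 without WT 4). RLE factors, library sizes alone and windows of 0.5 and 2 Mb moved none of these counts by over 1.5 times.

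The replicate numbers did not pair the libraries: same-numbered deviations correlated at -0.0083, 0.142 and -0.017, and not every library correlated best with its own number. With the replicate block edgeR called 430 genes, 1 in the CD200R1 pathway (Dok2), 2 in the DAP12 pathway (Lat2 higher and 1 lower), 2 of the other DAP12-coupled receptors and 1 neighbour, and Tyrobp stood at 0.049. Of the 5 genes nearest to each member, 0 (Cd200), 1 (Cd200r1), 1 (Cd200r2) and 1 (Cd200r4) stayed among the nearest 5 after the genotype means were subtracted. Without WT 4 alone, and with the stricter filter, Cd200r3 was not tested. Depth limits Cd200r3 most, at 4 to 20 reads per library.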

Other observations

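Beyond Cd200 on chromosome 16, 4 tested neighbours with few reads had positive log2 fold changes: Phldb2 (1.66, SE 0.53), Plcxd2 (1.24, SE 0.25), Cd96 (1.32, SE 0.68) and Nectin3 (1.25, SE 0.54). BC016579 and Abhd10, which lie on the same side and nearer to Cd200, had negative ones (-1.16 and -0.20). Phldb2 averaged 0.654 ± 0.230 CPM in KO (SD, n = 3) and 0.203 ± 0.115 CPM in WT (SD, n = 4), and Nectin3 averaged 0.854 ± 0.238 CPM in KO and 0.358 ± 0.230 CPM in WT. The pattern was noticed after the values were seen, and edgeR called 0 of the 4 (adjusted p 0.0921 to 0.337). Btla, an inhibitory receptor gene between Cd200r3 and Cd200, averaged 0.485 ± 0.276 CPM in KO and 0.350 ± 0.436 CPM in WT, with overlap.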
